A study of Homo sapiens with 24 samples.

Results

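The anaphase-promoting complex/cyclosome (APC/C) was represented on an nCounter cell cycle panel by 9 subunit genes, namely ANAPC1, ANAPC2, ANAPC4, ANAPC5, ANAPC7, ANAPC10, ANAPC11, CDC16 and CDC23, and by its mitotic activator CDC20. These 10 genes, chosen by gene name, were 10 of the 189 endogenous genes measured, and they were followed through all 24 libraries. The nCounter assay counts single transcript molecules of each gene with a colour-coded probe, without amplification. HCT116, a line from a colorectal cancer, received 50 nM of a control siRNA (siCTRL) or of siRNAs against CARLo transcripts, which gave 5 treated groups named siCARLo-7 v2, siCARLo-5, siCARLo-4, siCARLo-3 and siCARLo-1 v3. PC3, a line from a prostate cancer, received 100 nM of siCTRL or of siCARLo-1 v2&4. All 8 groups had 3 libraries, were transfected with the same lipid reagent and were grown without any other agent named in the labels. The CARLo transcripts are long non-coding RNAs, and the panel holds no probe for them, so each difference described here is between cells given a targeting siRNA and cells given siCTRL, with the extent of knockdown unknown. The labels do not say whether the replicates were separate cultures, so p-values measure the spread between these libraries, which may be technical.

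The APC/C is a multi-subunit ubiquitin ligase that marks securin, the B-type cyclins and other cell cycle regulators for destruction by the proteasome, which starts anaphase and ends mitosis. Its catalytic core pairs the cullin-like ANAPC2 with the RING protein ANAPC11, a platform of ANAPC1, ANAPC4 and ANAPC5 holds the core, and an arm of tetratricopeptide-repeat proteins that includes CDC16, CDC23 and ANAPC7 carries the sites where activators dock. ANAPC10 helps to recruit substrates. CDC20 activates the complex in mitosis, where the spindle assembly checkpoint holds it back until that checkpoint is satisfied, and FZR1 later replaces it. CDC20 itself is transcribed mainly in late G2 and mitosis.

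CDC23 and CDC20 carried the largest differences, the former in HCT116 and the latter in PC3, and their promoters are printed so that the letters can be read beside the values. The sequences run from 250 bases before to 50 bases after the annotated start in RefSeq on GRCh38.p14, at chr1:43358731-43359030 on the plus strand for CDC20 and at chr5:138213274-138213573 on the minus strand for CDC23. Capitals mark the CHR element TTTGAA, the CCAAT box and the E2F core, searched on both strands, the last spelled as TTCCCGC or as TTGGCGC or as TTCGCGC or as TTGCCGC.
CDC20: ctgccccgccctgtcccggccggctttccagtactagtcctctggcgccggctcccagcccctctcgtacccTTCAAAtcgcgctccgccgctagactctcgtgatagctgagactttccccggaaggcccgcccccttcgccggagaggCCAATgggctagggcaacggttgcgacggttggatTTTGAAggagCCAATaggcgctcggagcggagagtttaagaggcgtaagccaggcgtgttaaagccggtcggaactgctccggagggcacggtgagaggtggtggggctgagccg
CDC23: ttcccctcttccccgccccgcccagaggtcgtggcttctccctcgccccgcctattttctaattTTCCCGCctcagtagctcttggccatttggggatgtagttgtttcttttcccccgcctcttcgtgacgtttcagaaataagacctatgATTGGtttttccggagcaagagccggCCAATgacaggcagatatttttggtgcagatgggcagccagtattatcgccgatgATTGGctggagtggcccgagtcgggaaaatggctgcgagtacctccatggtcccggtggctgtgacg
The CDC20 promoter held CHR letters at -65 to -60 on the plus strand and at -178 to -173 on the other, and CCAAT at -100 to -96 and at -55 to -51. The CDC23 promoter held no CHR letters. It held CCAAT at -72 to -68, the same box on the other strand at -98 to -94 and at -17 to -13, and TTCCCGC at -186 to -180. The reverse of CCAAT shares letters with TTGGCGC, but none of these matches overlapped. Of all 35116 promoters of this length, 15.2% held TTTGAA, 34.6% CCAAT and 13.0% an E2F core spelling, against 4, 7 and 4 of the 16 promoters that RefSeq lists for the 10 genes. Some of the 16 overlap, so that a CCAAT box of ANAPC11 was counted in 2 of them. By gene, 4, 5 and 3 of the 10 held a match. These matches are letters in a window and were not tested for function.

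Endogenous molecule counts per library ranged from 55893 to 236508, and all 10 genes lay above background in each of the 24 libraries. In HCT116 siCARLo-1 v3, replicate 3 stood apart from replicates 1 and 2, with a chi-square per degree of freedom of 53.8 and 47.5, against 1.18 to 4.35 for the pairs within other groups that hold raw counts and 2.47 for its replicates 1 and 2. Without it, CDC23 (-0.64) and ANAPC2 (0.89) were called in that group against siCTRL, as they were with it, and the other 8 APC/C genes lay between -0.13 and 0.23 and were not called. HCT116 siCTRL replicates 1 and 2 were close to sampling noise (1.18) but were kept as separate libraries. The ratio of endogenous to positive control counts was 10.8 ± 0.998 (SD, n = 3) in HCT116 siCTRL and 7.54 in siCARLo-3, the lowest among the HCT116 groups. It was 10.4 ± 0.939 in PC3 siCTRL and 5.96 ± 0.329 in PC3 siCARLo-1 v2&4. In the authors' series-wide values no siCARLo group shares its level of positive control scaling with its siCTRL group, so scaling set and treatment cannot be told apart. Too few markers of tissue were used here to check the origin of the lines. In total RNA from a culture, fewer cells with a transcript and less of it per cell cannot be told apart.

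Values below are normalized counts, scaled so that the bulk of the panel is level between libraries (TMM, the trimmed mean of M-values). Calls were made below an adjusted p of 0.05. The edgeR quasi-likelihood test was used in HCT116, and limma on the log2 scale in PC3 and across lines. Means carry SDs, log2 fold changes carry standard errors, and n = 3 libraries in every group. Other scalings shift all genes together. Against a median log2 fold change of 0.00 to 0.05 over the 178 genes tested in HCT116, positive control scaling gave medians from -0.61 in siCARLo-3 to -0.05 in siCARLo-7 v2, 6 reference genes gave -0.15 in siCARLo-3 to 0.14 in siCARLo-1 v3, and the authors' series-wide values gave -0.17 in siCARLo-3 to 0.79 in siCARLo-7 v2.

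The 5 HCT116 comparisons share the same siCTRL libraries, so their results are not independent of each other. Between 2 and 5 of the 10 APC/C genes passed the test in each, most often CDC23, which fell, and ANAPC2, which rose. With siCARLo-1 v3, 1 gene was higher and 1 lower, while 41.0% of all tested genes were called (16.9% higher, 24.2% lower). With siCARLo-3, 2 were higher and 3 lower, against 52.2% of all genes (25.3% higher, 27.0% lower). With siCARLo-4, 3 were called, against 35.4%, and 2 of them were lower, against 17.4%. With siCARLo-5, 2 were higher and 2 lower, against 55.1% (25.3% higher, 29.8% lower). With siCARLo-7 v2, 1 was higher and 1 lower, against 37.1% (20.8% higher, 16.3% lower). The median log2 fold change over the 10 genes was 0.07, -0.08, -0.01, -0.16 and 0.20 in the same order.

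The split moved with the scaling. Positive control scaling left 1 higher and 1 lower in siCARLo-1 v3, 0 and 7 in siCARLo-3, 0 and 2 in siCARLo-4, 0 and 6 in siCARLo-5, and 0 and 1 in siCARLo-7 v2. Reference gene scaling gave 0 and 4 in siCARLo-3, 1 and 0 in siCARLo-4, and 1 and 2 in siCARLo-5. The series-wide values gave 9 higher and 0 lower in siCARLo-7 v2, where 137 of all 178 genes were higher and 2 lower. Over all 178 genes, positive control scaling gave 10 higher and 47 lower in siCARLo-1 v3, and 11 and 118 in siCARLo-3. It gave 13 and 40 in siCARLo-4, 8 and 82 in siCARLo-5, and 23 and 25 in siCARLo-7 v2. Reference gene scaling gave 27 and 59 of all genes in siCARLo-3, 25 and 17 in siCARLo-4, and 28 and 61 in siCARLo-5.

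**Figure D1:**
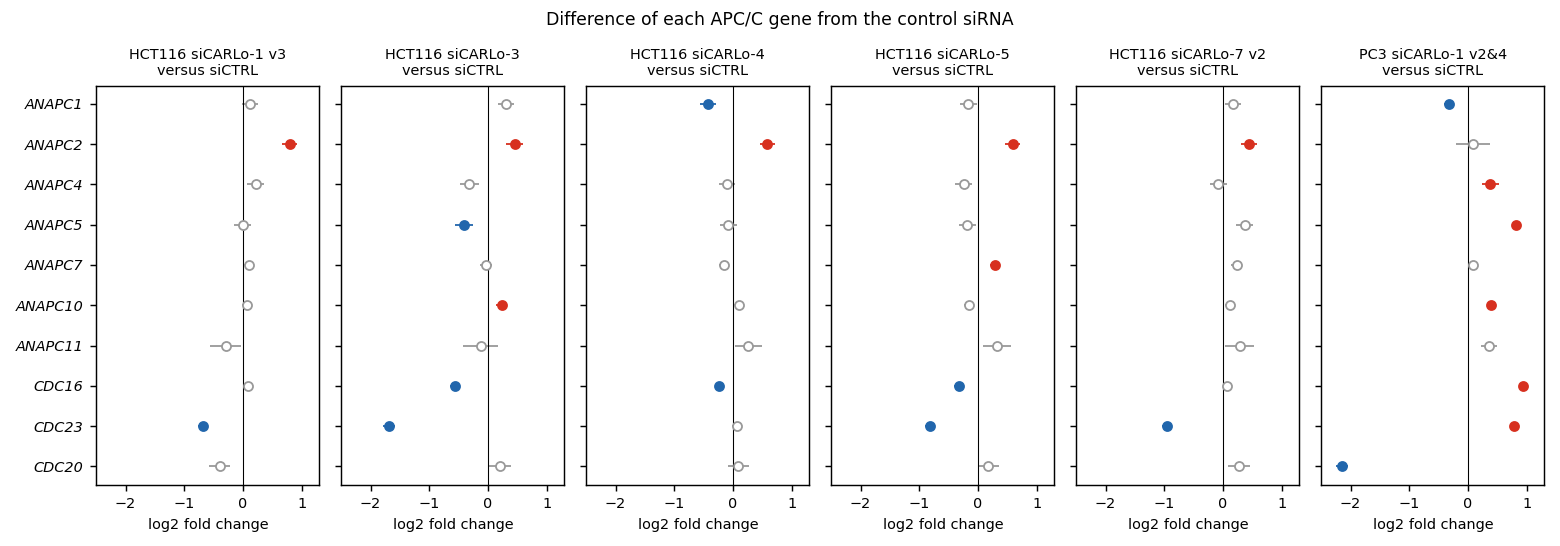
Log2 fold change of each of the 10 genes against siCTRL of the same line (x axis) in the 6 comparisons, with standard errors as bars, n = 3 libraries a group. Filled red points are higher and filled blue points lower at an adjusted p under 0.05, open grey points were not called. CDC23 lies at -1.69 in siCARLo-3 and CDC20 at -2.15 in PC3. With positive control scaling, ANAPC2 and ANAPC10 in siCARLo-3, ANAPC7 in siCARLo-5 and, in PC3, all red points but CDC16 move below 0, and CDC16 moves to 0.06. With the series-wide values CDC16 moves above 0 in siCARLo-5 and siCARLo-4, and all PC3 points lie below 0.

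CDC23, a subunit of the tetratricopeptide-repeat arm, was lower in 4 of the 5 siCARLo groups. It measured 388, 375 and 336 normalized counts in the siCTRL libraries. In siCARLo-3 it measured 125, 107 and 110, the lowest of all groups, with no overlap with siCTRL or with any other siCARLo group. The log2 fold change was -1.69 ± 0.11 (adjusted p = 2.65e-10, edgeR), or 3.23-fold lower.

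Intermediate levels of CDC23 were measured in 3 groups. The libraries held 252, 216 and 215 in siCARLo-1 v3, and 220, 198 and 206 in siCARLo-5. In siCARLo-7 v2 they held 199, 197 and 170. None of these 9 libraries reached the lowest control library. CDC23 fell by 0.68 ± 0.09 on the log2 scale in siCARLo-1 v3 (adjusted p = 9.71e-06, edgeR), and by 0.64 without replicate 3 (adjusted p = 2.4e-05). It fell by 0.82 ± 0.09 in siCARLo-5 (adjusted p = 7.15e-07) and by 0.96 ± 0.09 in siCARLo-7 v2 (adjusted p = 1.60e-07). The latter was -0.19 with the series-wide values, not called (adjusted p = 0.25).

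In siCARLo-4, CDC23 measured 393, 376 and 382, overlapping siCTRL and differing by 0.06 ± 0.08 (adjusted p = 0.56, edgeR). The order of the 6 groups was thus siCARLo-4, siCTRL, siCARLo-1 v3, siCARLo-5, siCARLo-7 v2 and siCARLo-3. Neighbours differed only between siCTRL and siCARLo-1 v3 and between siCARLo-7 v2 and siCARLo-3. With positive control scaling the log2 fold changes were -2.31 for siCARLo-3, -1.23 for siCARLo-5, -1.02 for siCARLo-7 v2 and -0.86 for siCARLo-1 v3, all called, and -0.12 for siCARLo-4, not called.

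CDC16, another protein of that arm, was nearly constant in siCTRL, at 594, 590 and 581 normalized counts. It measured 391, 434 and 368 in siCARLo-3, 446, 499 and 457 in siCARLo-5, and 509, 464 and 529 in siCARLo-4. All 9 libraries lay below the control range. CDC16 fell by 0.56 ± 0.08 in siCARLo-3 (adjusted p = 1.95e-05, edgeR), by 0.33 ± 0.08 in siCARLo-5 (adjusted p = 0.00138) and by 0.23 ± 0.08 in siCARLo-4 (adjusted p = 0.0216). The series-wide values turned the sign in siCARLo-5 (0.09) and siCARLo-4 (0.02), and in siCARLo-4 the call was also lost with reference gene scaling and without siCTRL replicate 1, siCTRL replicate 2 or siCARLo-4 replicate 2, and with siCTRL replicates 1 and 2 averaged. In siCARLo-1 v3 CDC16 measured 654, 589 and 615, and in siCARLo-7 v2 661, 613 and 576. Both groups overlapped siCTRL and were not called, with log2 fold changes of 0.08 ± 0.08 and 0.07 ± 0.08.

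ANAPC7, which adds a further repeat dimer to the arm in vertebrates, measured 207, 232 and 225 in siCTRL and 258, 266 and 288 in siCARLo-5. The groups did not overlap, and ANAPC7 rose by 0.29 ± 0.09 (adjusted p = 0.00851, edgeR). That call was lost with reference gene scaling (0.14) and without siCTRL replicate 1 (0.24), and positive control scaling gave -0.13. In siCARLo-7 v2 it measured 249, 265 and 264, also above every control library, at 0.23 ± 0.09 and an adjusted p of 0.0526. The other groups spanned 193 to 260 and were not called.

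**Figure D2:**
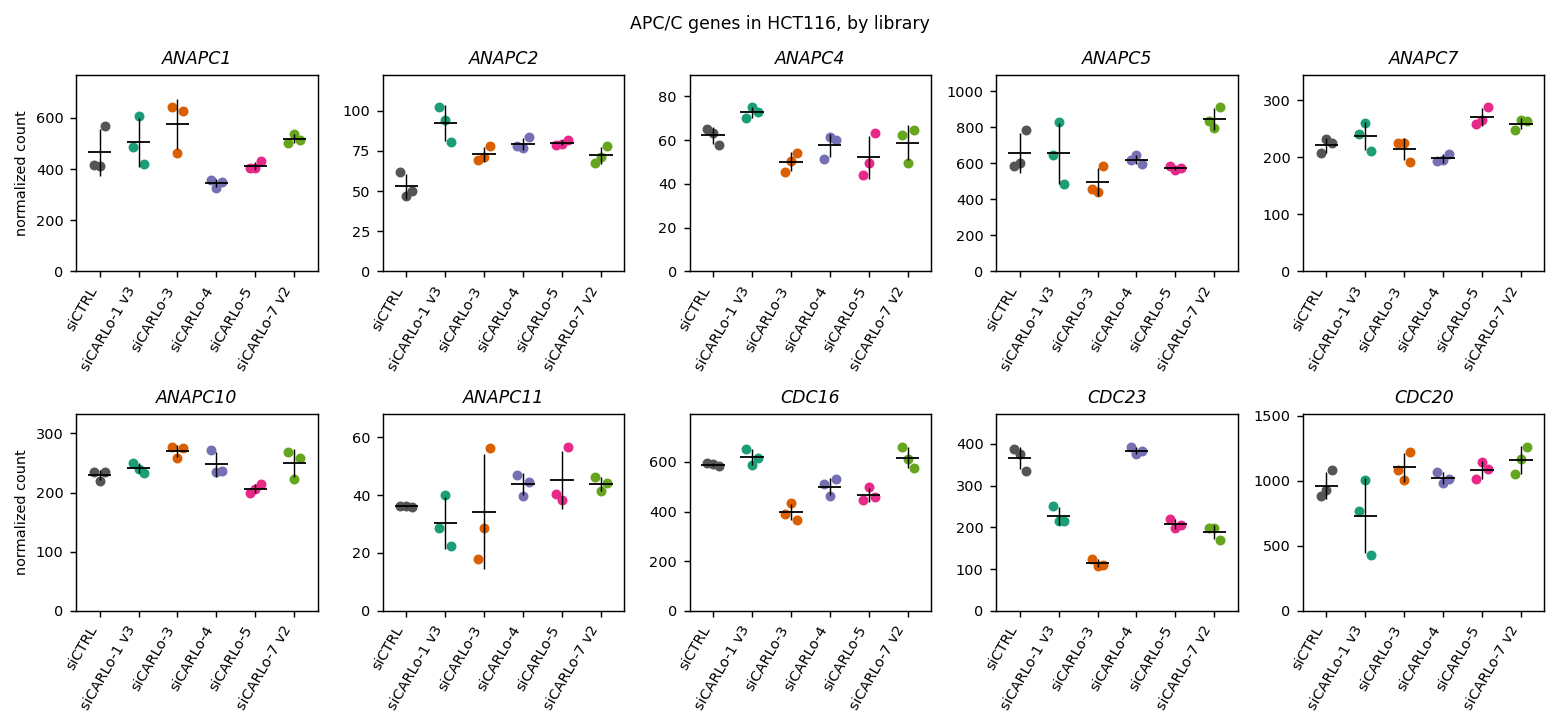
TMM-normalized counts (y axis, from 0, a separate scale for each gene) of the 10 genes in the 18 HCT116 libraries. Points are libraries, horizontal lines group means and vertical lines SDs, n = 3. CDC23 lies between 107 and 125 in siCARLo-3 and between 336 and 388 in siCTRL, and CDC20 falls to 428 in 1 siCARLo-1 v3 library.

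ANAPC2, the cullin-like catalytic subunit, was called higher in all 5 siCARLo groups, the only gene of the 10 called in each of these 5 comparisons. Outside the 10, CDKN1A, MAD1L1 and BUB1B were also called in all 5. The share of all tested genes called in all 5 is not given here. ANAPC2 measured 61.5, 46.9 and 50.2 normalized counts in siCTRL. Before scaling, the libraries held 39 to 66 molecules of it in siCTRL and 35 to 52 in siCARLo-3. Normalized counts of ANAPC2 were 102, 94.3 and 80.2 in siCARLo-1 v3. The lowest of all 15 siCARLo libraries, at 67.5 in siCARLo-7 v2, lay above the highest control library, and the highest outside siCARLo-1 v3 was 83.8 in siCARLo-4.

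ANAPC2 rose by 0.80 ± 0.13 in siCARLo-1 v3 (adjusted p = 8.27e-05, edgeR), and by 0.89 without replicate 3. It rose by 0.45 ± 0.15 in siCARLo-3 (adjusted p = 0.0222), 0.58 ± 0.13 in siCARLo-4 (adjusted p = 0.00177), 0.59 ± 0.13 in siCARLo-5 (adjusted p = 7.69e-04) and 0.44 ± 0.13 in siCARLo-7 v2 (adjusted p = 0.0139). With positive control scaling only siCARLo-1 v3 was still called (0.63), siCARLo-3 turned to -0.16, and the others gave 0.39 (siCARLo-7 v2), 0.41 (siCARLo-4) and 0.19 (siCARLo-5). Without siCTRL replicate 2 the calls in siCARLo-3 (0.33) and siCARLo-7 v2 (0.35) were lost. That in siCARLo-3 was also lost with reference genes (0.29), with the series-wide values (0.29) and without its replicate 2 (0.47) or 3 (0.41), and that in siCARLo-7 v2 with DESeq2 (0.40) and without its replicate 3 (0.39). Among neighbours in the order of levels, siCARLo-7 v2 differed from siCTRL, and no siCARLo group differed from the next.

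ANAPC11, the RING subunit that recruits the ubiquitin-loaded enzyme, was represented by 9 to 79 molecules per HCT116 library before scaling. It measured 36.4, 36.1 and 36.0 in siCTRL and 17.9, 28.7 and 56.3 in siCARLo-3. The spread within siCARLo-3 covered the control range on both sides. Log2 fold changes in the 5 groups lay between -0.29 ± 0.27 and 0.33 ± 0.24, and none was called.

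Of the platform subunits, ANAPC1 and ANAPC5 were called in 1 group each and ANAPC4 in none. ANAPC1, the largest scaffold protein, measured 414, 411 and 570 in siCTRL and 357, 327 and 351 in siCARLo-4, where no library reached the control range. It fell by 0.42 ± 0.14 in siCARLo-4 (adjusted p = 0.0216, edgeR). The call was lost with reference gene scaling (-0.43) and the series-wide values (-0.16), and without siCTRL replicate 3 (-0.26), siCARLo-4 replicate 2 (-0.39) or siCARLo-4 replicate 3 (-0.44). The other groups overlapped siCTRL, and siCARLo-3 had the highest mean, 576 ± 98.9, at 0.31 ± 0.14 and an adjusted p of 0.0782, a difference called with DESeq2 (0.34) and without siCTRL replicate 3 (0.47) or siCARLo-3 replicate 2 (0.45).

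ANAPC5, a platform subunit with repeats of its own, measured 585, 599 and 786 in siCTRL and 460, 442 and 586 in siCARLo-3. The groups overlapped by 1 library. ANAPC5 fell by 0.41 ± 0.16 in siCARLo-3 (adjusted p = 0.0349, edgeR), a call lost without siCTRL replicate 3 (-0.26), siCARLo-3 replicate 1 (-0.36) or siCARLo-3 replicate 2 (-0.33), and with background subtraction or the series-wide values. In siCARLo-7 v2 it measured 835, 794 and 911, all above the control range, at 0.37 ± 0.15 and an adjusted p of 0.0529, and it was called without siCTRL replicate 3 (0.52), with only the 2 groups in the fit (0.38) and with the series-wide values (1.15). In siCARLo-1 v3 the libraries held 648, 829 and 488, replicate 3 being the lowest, and the log2 fold change was -0.01, or 0.17 without that replicate, called in neither.

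ANAPC4, the third platform subunit, stayed between 44.2 and 74.9 normalized counts in all HCT116 libraries. Its siCTRL libraries held 65.3, 63.2 and 57.9. All siCARLo-1 v3 libraries lay above and all siCARLo-3 libraries below that range, yet neither was called, at 0.21 ± 0.14 and -0.32 ± 0.17 with adjusted p of 0.246 and 0.131 (edgeR). The siCARLo-3 difference was called with positive control scaling (-0.94), reference gene scaling (-0.48) and the series-wide values (-0.46).

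ANAPC10, the substrate-recruiting subunit, measured 234, 220 and 235 in siCTRL and 278, 259 and 275 in siCARLo-3. The groups did not overlap, and ANAPC10 rose by 0.23 ± 0.09 (adjusted p = 0.0397, edgeR). That call was lost without any 1 of the siCTRL replicates (0.17, 0.25 and 0.25), without siCARLo-3 replicate 1 or 3, with only the 2 groups in the fit (0.23), with siCTRL replicates 1 and 2 averaged (0.20), with reference genes (0.07) and with the series-wide values (0.06), and positive control scaling turned the sign (-0.38). The other 4 groups were not called.

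CDC20, the activator, was called in no siCARLo group in HCT116. It measured 880, 925 and 1082 normalized counts in siCTRL. In siCARLo-3 it measured 1083, 1005 and 1222, in siCARLo-4 1071, 984 and 1012. The siCARLo-5 libraries held 1011, 1146 and 1093, those of siCARLo-7 v2 1049, 1165 and 1262. All 4 groups overlapped the control range. Their log2 fold changes were 0.20 ± 0.19, 0.09 ± 0.18, 0.17 ± 0.18 and 0.27 ± 0.18, with adjusted p between 0.251 and 0.712 (edgeR). The last of these was called with only the 2 groups in the fit (0.27) and with the series-wide values (1.04).

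In siCARLo-1 v3 the CDC20 libraries diverged, at 764, 1004 and 428. Replicate 3, the library that stood apart, held less than any other HCT116 library. The log2 fold change was -0.40 ± 0.19 (adjusted p = 0.0941, edgeR) with all 3 libraries and -0.13 without replicate 3 (adjusted p = 0.395). It was called only without replicate 2 (-0.68, adjusted p = 0.00274).

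Comparisons among siCARLo groups whose positive controls were scaled alike in the series-wide values do not set a group against siCTRL. The tests below used the molecule counts before that scaling. In those counts the positive control sums differed within a set, at 7334 to 13867 in siCARLo-3 and 14693 to 19488 in siCARLo-4. The siCTRL libraries were still part of the fit, in its scaling, gene filter and estimate of spread. A first set holds siCARLo-4, siCARLo-3 and siCARLo-1 v3, another siCARLo-7 v2 and siCARLo-5. CDC23 was higher in siCARLo-4 than in siCARLo-3 by 1.76 ± 0.10 (adjusted p = 9.42e-11, edgeR) and than in siCARLo-1 v3 by 0.75 ± 0.09 (adjusted p = 2.68e-06). It was lower in siCARLo-3 than in siCARLo-1 v3, at -1.01 ± 0.11 (adjusted p = 5.97e-07), and at -1.06 without siCARLo-1 v3 replicate 3.

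CDC16 was likewise lower in siCARLo-3 than in siCARLo-1 v3 (-0.63 ± 0.08) and higher in siCARLo-4 than in siCARLo-3 (0.33 ± 0.08). It was higher in siCARLo-7 v2 than in siCARLo-5 by 0.40 ± 0.08 (adjusted p = 3.05e-04, edgeR), where CDC23 was not called (-0.14 ± 0.09). ANAPC5 (0.56) and ANAPC10 (0.28) were also higher in siCARLo-7 v2 than in siCARLo-5. ANAPC1 was lower in siCARLo-4 than in siCARLo-3 by a log2 difference of -0.73 ± 0.14 (adjusted p = 3.46e-04), and than in siCARLo-1 v3 by -0.54 ± 0.14 (adjusted p = 0.00399). Without siCARLo-1 v3 replicate 3, the differences from that group were -0.64 for CDC16 in siCARLo-3, and 0.70 for CDC23 and -0.65 for ANAPC1 in siCARLo-4, all still called.

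In all, 6 of the 10 genes were called between siCARLo-3 and siCARLo-1 v3, against 55.1% of all tested genes, and 5 between siCARLo-4 and siCARLo-1 v3, against 45.5%. Between siCARLo-4 and siCARLo-3 there were 3, against 43.8%, and between siCARLo-7 v2 and siCARLo-5 there were 3, against 52.2%. The CDC20 difference between siCARLo-4 and siCARLo-1 v3 (0.49 ± 0.19, adjusted p = 0.0387) was 0.22 without siCARLo-1 v3 replicate 3 (adjusted p = 0.102). That between siCARLo-3 and siCARLo-1 v3 was 0.60 ± 0.19 (adjusted p = 0.0137) and 0.33 without it (adjusted p = 0.0215). Neither was called with positive control scaling (0.44 and 0.13) or reference gene scaling (0.31 and 0.26).

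In PC3, CDC20 was the gene of the complex with the largest difference. It measured 592, 636 and 656 normalized values in siCTRL and 145, 159 and 121 with siCARLo-1 v2&4. Every treated library lay far below every control library. CDC20 fell by 2.15 ± 0.11 on the log2 scale (adjusted p = 6.98e-06, limma), or 4.43-fold. It was lower under every scaling, at -3.01 with positive controls, -1.90 with reference genes and -3.30 with the series-wide values.

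With TMM scaling 5 of the other genes were higher in PC3 and ANAPC1 was lower, so that 7 of 10 were called, against 76.0% of all 179 tested genes (40.2% higher, 35.8% lower). CDC16 measured 424, 446 and 444 in siCTRL and 846, 794 and 867 with siCARLo-1 v2&4. CDC23 measured 342, 334 and 321 against 568, 532 and 621. ANAPC5 measured 691, 688 and 740 against 1217, 1251 and 1265. For all 3 genes the groups stood well apart on this scale. CDC16 was higher by 0.93 ± 0.06 (adjusted p = 1.59e-05, limma), ANAPC5 by 0.82 ± 0.05 (adjusted p = 2.14e-05) and CDC23 by 0.78 ± 0.07 (adjusted p = 8.52e-05), but with positive control scaling the values were 0.06, -0.05 and -0.08, none called, and with the series-wide values -0.23, -0.35 and -0.38.

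ANAPC10 measured 178, 197 and 194 in siCTRL and 255, 244 and 250 with siCARLo-1 v2&4, and the groups did not overlap. It was higher by 0.40 ± 0.06 (adjusted p = 8.61e-04, limma) with TMM scaling and lower with positive controls (-0.47). ANAPC4 measured 41.7, 51.7 and 48.4 against 74.9, 57.2 and 54.3. It was higher by 0.38 ± 0.14 (adjusted p = 0.0475), turned to -0.47 with positive controls, and was not called when a siCTRL replicate, whichever it was, or siCARLo-1 v2&4 replicate 1 or 2 was left out, nor with no filter (adjusted p = 0.055). ANAPC1 measured 365, 329 and 364 against 281, 255 and 309, and fell by 0.33 ± 0.09 (adjusted p = 0.0146), but was not called with reference gene scaling (-0.08).

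ANAPC2, ANAPC7 and ANAPC11 were not called in PC3, at 0.08 ± 0.29, 0.09 ± 0.09 and 0.35 ± 0.14. All 3 were lower with positive control scaling. ANAPC2 spread widely with siCARLo-1 v2&4, at 64.9, 107 and 47.0 normalized values, against 72.6, 59.8 and 64.1 in siCTRL.

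**Figure D3:**
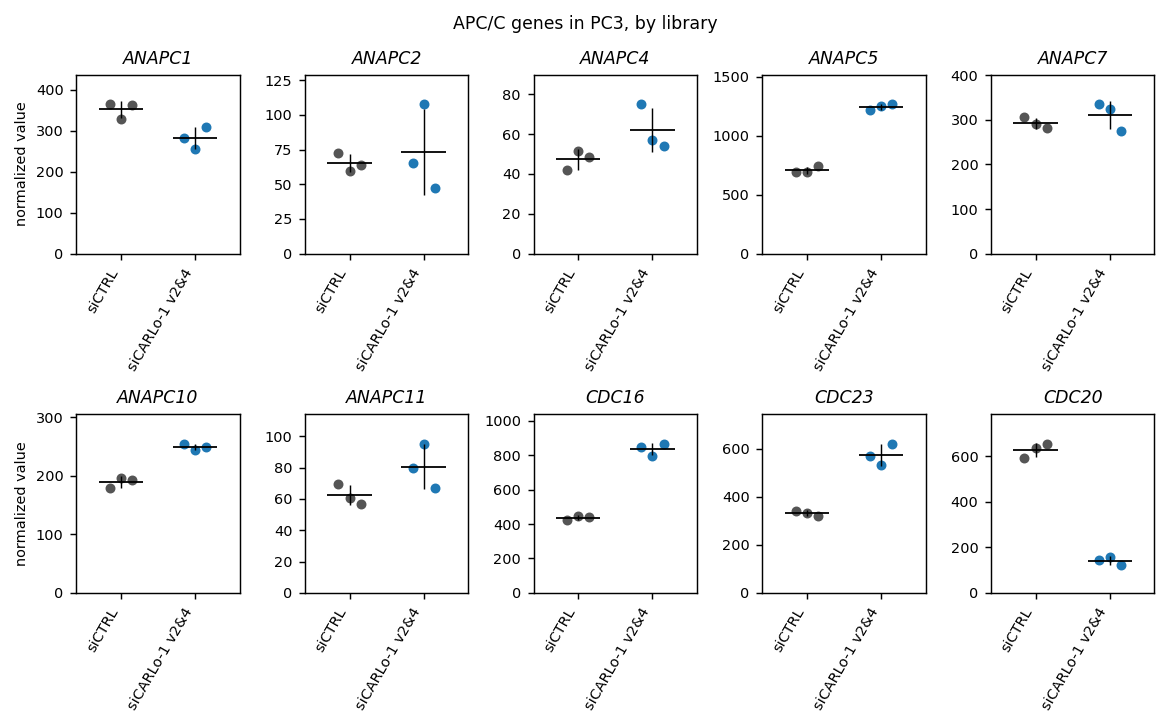
Normalized values (y axis, from 0, a separate scale for each gene) of the 10 genes in the 6 PC3 libraries under TMM scaling. Points are libraries, horizontal lines group means and vertical lines SDs, n = 3. CDC20 lies between 592 and 656 in siCTRL and between 121 and 159 with siCARLo-1 v2&4. With positive control scaling the higher treated levels of ANAPC5, CDC16 and CDC23 are not called, and those of ANAPC4 and ANAPC10 turn lower.

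The PC3 panel shifted as a whole between scalings. The median log2 fold change of all tested genes was 0.08 with TMM, -0.77 with positive controls, 0.32 with reference genes and -1.07 with the series-wide values. All genes called higher and lower numbered 72 and 64 with TMM, 11 and 131 with positive controls, 92 and 43 with reference genes, and 6 and 157 with the series-wide values. The 10 APC/C genes were called 5 higher and 2 lower, 0 and 7, 7 and 1, and 0 and 9 in the same order. Their own median moved from 0.37 to -0.49, 0.61 and -0.77.

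**Figure D4:**
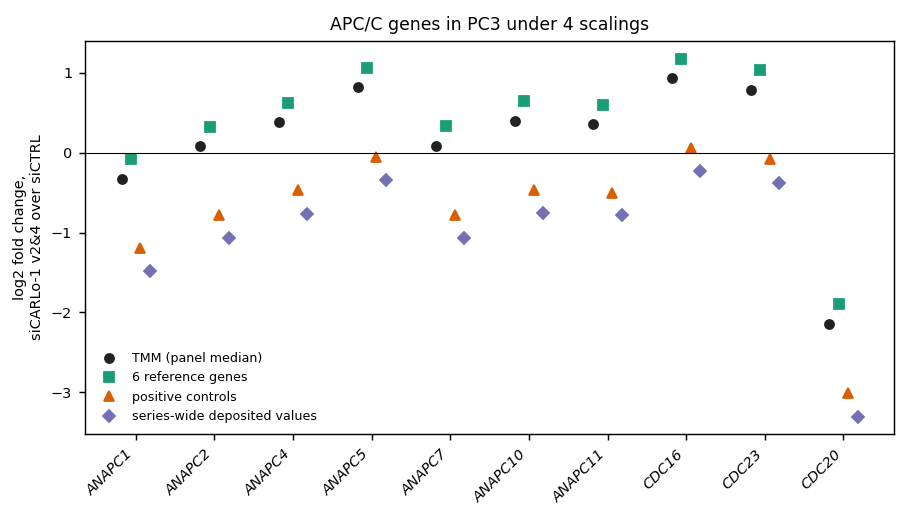
Log2 fold change of the 10 genes with siCARLo-1 v2&4 over siCTRL in PC3 (y axis) under 4 scalings, shown by marker shape. CDC20 lies between -3.30 and -1.90. CDC23 runs from -0.38 to 1.03 and CDC16 from -0.23 to 1.18, so their sign depends on the scaling.

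A comparison within each library avoids the scaling. It was added after the data were seen and carries no test. The log2 value of CDC20 minus the mean log2 value of the other 9 genes was 1.69 ± 0.09 (SD, n = 3) in PC3 siCTRL and -0.85 ± 0.12 with siCARLo-1 v2&4, a difference of -2.54. For CDC23 the same measure was 0.67 ± 0.05 and 1.38 ± 0.22. CDC23 was thus higher, relative to the other 9 genes, in each treated PC3 library than in each control library. CDC20, which was lower there, is among the 9.

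In HCT116 the same measure of CDC23 was 0.75 ± 0.17 in siCTRL and -0.89 ± 0.21 in siCARLo-3. It was -0.41 ± 0.17 in siCARLo-7 v2, -0.09 ± 0.14 in siCARLo-5 and 0.00 ± 0.23 in siCARLo-1 v3. All 12 libraries of these 4 groups lay below the siCTRL libraries, and siCARLo-4 lay at 0.82 ± 0.02. For CDC20 it was 2.30 ± 0.13 in siCTRL, 1.78 ± 0.47 in siCARLo-1 v3 and 2.39 to 2.73 in the other groups.

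**Figure D5:**
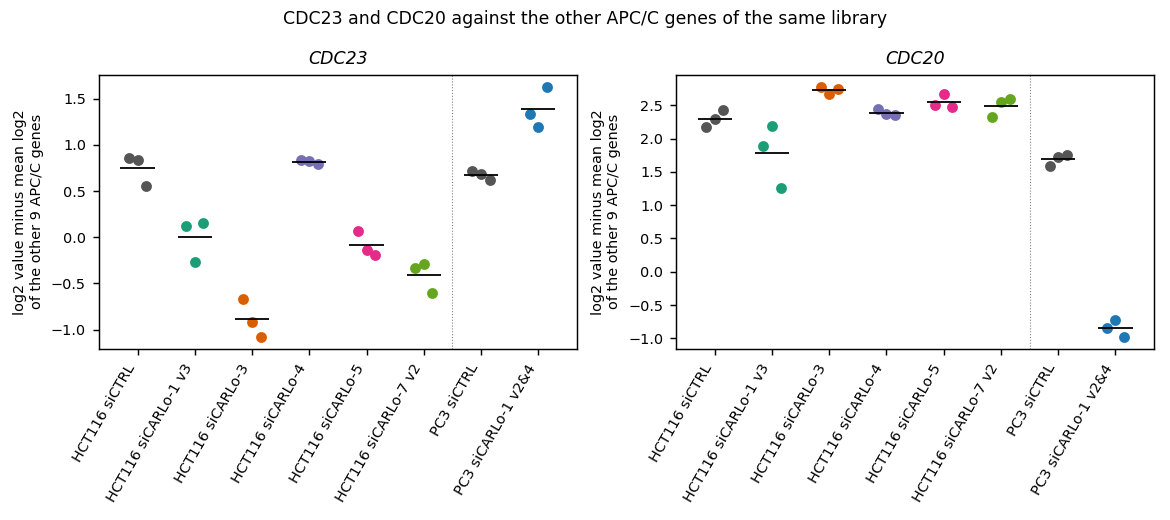
Log2 value of CDC23 (left) and CDC20 (right) minus the mean log2 value of the other 9 genes of the same library (y axis), by group. Points are libraries and lines group means, n = 3, and the dotted line separates HCT116 from PC3. CDC23 is lowest in siCARLo-3 at -0.89 and CDC20 in PC3 siCARLo-1 v2&4 at -0.85.

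Between the control groups of the lines, APC/C genes were lower in PC3 or not called. In a limma fit over all 24 libraries 6 of the 10 were lower in PC3 siCTRL than in HCT116 siCTRL and 0 higher, against 68.5% of 184 genes called (35.3% higher, 33.2% lower). CDC20 was lower by a log2 difference of -0.81 ± 0.20 (adjusted p = 0.00132) and CDC16 by -0.63 ± 0.07 (adjusted p = 6.62e-07). ANAPC4 (-0.59), ANAPC1 (-0.58), ANAPC10 (-0.48) and CDC23 (-0.34) were lower too. All 6 stayed lower with positive control and with reference gene scaling. The lines differed in siRNA dose as well.

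The effect of siCARLo-1 siRNAs was compared between the lines as a difference of differences, HCT116 siCARLo-1 v3 minus PC3 siCARLo-1 v2&4, in which siRNA, dose and line change together. It was called for 6 of the 10 genes, 3 in each direction, against 55.4% of all genes (32.6% higher, 22.8% lower). CDC20 was changed by -0.47 in HCT116 and by -2.24 in PC3 in this fit, a difference of 1.77 ± 0.28 (adjusted p = 3.04e-05, limma), and 2.06 without siCARLo-1 v3 replicate 3. CDC23 was changed by -0.69 and 0.69, a difference of -1.37 ± 0.12 (adjusted p = 2.56e-08), which was -0.79 with positive control scaling (adjusted p = 0.00196) and -1.38 without that replicate.

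CDC16 differed by -0.76 ± 0.11 (adjusted p = 8.33e-06, limma) and ANAPC5 by -0.74 ± 0.21 (adjusted p = 0.00513), and neither was called with positive control scaling (-0.18 and -0.16). ANAPC2 differed by 0.81 ± 0.26 (adjusted p = 0.0148) and ANAPC1 by 0.54 ± 0.20 (adjusted p = 0.0283), and neither was called with reference gene scaling (0.59 and 0.32) or without HCT116 siCTRL replicate 2 (0.60 and 0.33). The remaining 4 genes were not called.

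The panel held 1 other APC/C subunit, CDC27, which forms part of the repeat arm beside CDC16 and CDC23. CDC27 was lower in siCARLo-1 v3 (-0.66), siCARLo-5 (-0.92) and siCARLo-7 v2 (-0.56). It was not called in siCARLo-3 (-0.29), siCARLo-4 (-0.34) or PC3 (-0.05). The siCARLo-1 v3 value was -0.64 without replicate 3, still called, and -0.40 with the series-wide values, not called. With positive control scaling siCARLo-4 was called lower (-0.53). In siCARLo-3, where CDC23 had its lowest level, CDC27 was called lower with positive control scaling (-0.92), reference gene scaling (-0.46) and the series-wide values (-0.49). The PC3 value turned with scaling, from -1.21 with the series-wide values to 0.20 with reference genes, and siCARLo-7 v2 gave 0.21 with the series-wide values.

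Among 7 activators and checkpoint inhibitors of the complex, MAD1L1, which recruits MAD2 to unattached kinetochores, was higher with TMM scaling in all 5 HCT116 groups (0.38 to 0.55) and in PC3 (0.49), but with positive control scaling it was called in none of the former, turned to -0.23 in siCARLo-3 and was lower in PC3 (-0.37). The series-wide values also gave a lower level in PC3 (-0.66). In siCARLo-3 MAD1L1 was called neither with reference genes (0.22) nor with the series-wide values (0.21), and in siCARLo-5 it was not called with reference genes (0.27). BUB1B, the checkpoint kinase-like protein that binds CDC20, was lower in all 6 (-1.58 in PC3), also with positive control scaling. In siCARLo-4 it was not called with reference genes (-0.47) or the series-wide values (-0.21), and the latter gave 0.16 in siCARLo-7 v2, not called. FZR1, the activator that replaces CDC20 after anaphase, was higher in PC3 (0.64) and, in HCT116, with siCARLo-5 (0.52), and neither was called with positive control scaling (-0.22 and 0.11), under which siCARLo-3 was called lower (-0.82). With the series-wide values FZR1 was called higher in siCARLo-4 (0.45) and siCARLo-7 v2 (1.03) as well as siCARLo-5 (0.94), and lower in PC3 (-0.51). Over the list, 1 higher and 4 lower were called in siCARLo-1 v3 (1 and 3 without replicate 3), 2 and 1 in siCARLo-3, 1 and 3 in siCARLo-4, 1 and 2 in siCARLo-7 v2, 2 and 4 in siCARLo-5, and 2 and 5 in PC3. Of all tested genes, 16.9% were higher and 24.2% lower in siCARLo-1 v3, and 25.3% and 27.0% in siCARLo-3. In siCARLo-4, 35.4% were called (17.4% lower). The shares higher and lower were 20.8% and 16.3% in siCARLo-7 v2, 25.3% and 29.8% in siCARLo-5, and 40.2% and 35.8% in PC3. With positive control scaling 0 of the list were higher in any of the 6 comparisons. That scaling called from 8 (siCARLo-5) to 23 (siCARLo-7 v2) of all 178 genes higher in HCT116.

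Of 10 tested transcripts that encode APC/C substrates, 9 were lower and 1 higher in PC3, with a median of -1.71 against 0.08 over all genes. CCNB2 (-3.06), CCNB1 (-2.58) and PLK1 (-2.21) had the lowest values there, and 9 substrates were lower in PC3 under each of the 3 other scalings. In siCARLo-1 v3, 7 substrates were lower and 1 higher, with the same counts without replicate 3, and in siCARLo-7 v2, 8 were lower and 0 higher. The counts were 0 higher and 3 lower in siCARLo-3, 0 and 2 in siCARLo-4, and 2 and 3 in siCARLo-5. Of all tested genes, 35.8% were lower in PC3, 24.2% in siCARLo-1 v3 and 16.3% in siCARLo-7 v2. The shares lower were 27.0% in siCARLo-3, 17.4% in siCARLo-4 and 29.8% in siCARLo-5, where 25.3% were higher. With the series-wide values the substrate counts turned to 6 and 0 in siCARLo-5, and 2 and 0 in siCARLo-7 v2. Those values called 87 and 137 of all 178 genes higher in the same 2 groups, and left 5 substrates lower in siCARLo-1 v3. In siCARLo-7 v2, 5 substrates were lower with positive control scaling and 2 with reference genes, against 25 and 13 of all 178 genes. In siCARLo-3, 8 were lower with positive controls, where 118 of all 178 genes were lower. In siCARLo-4, 0 were lower with reference genes, against 17 of all 178. The number of substrates higher in siCARLo-5 was 0 with either, against 8 of all genes with positive controls and 28 with reference genes. PTTG1 and PTTG2 are nearly identical in sequence, so their 2 probes may count the same transcripts.

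Among 7 genes of SCF, the cullin ligase that acts in G1 and S phase, 1 was higher and 3 lower in siCARLo-1 v3 (2 and 2 without replicate 3), 3 and 2 in siCARLo-3, 1 and 1 in siCARLo-4, 2 and 2 in siCARLo-7 v2 as in siCARLo-5, and 5 and 1 in PC3, which became 1 and 4 with positive control scaling. Under positive control scaling most of all tested genes were called lower in PC3. With TMM scaling, 41.0% of all tested genes were called in siCARLo-1 v3, 52.2% in siCARLo-3 and 35.4% in siCARLo-4. The shares were 37.1% in siCARLo-7 v2, 55.1% in siCARLo-5 and 76.0% in PC3 (40.2% higher, 35.8% lower). SKP2, the SCF substrate receptor and itself an APC/C substrate, is counted in both lists. It was lower in siCARLo-3 (-1.35), siCARLo-7 v2 (-0.90), siCARLo-1 v3 (-0.64), siCARLo-5 (-0.27) and PC3 (-1.63), and not called in siCARLo-4 (-0.11). With the series-wide values only siCARLo-3 and PC3 were called, and siCARLo-5 gave 0.16. Without replicate 3 of siCARLo-1 v3, SKP2 (-0.52), BUB1B (-0.65), MAD1L1 (0.57) and CDKN1A (2.27) were called there in the same direction. The CDK inhibitor CDKN1A was higher in all 6 comparisons, from 0.58 in siCARLo-7 v2 to 2.60 in PC3, and under each of the 3 other scalings.

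Over the 18 HCT116 libraries, SKP2 was also the gene whose log2 normalized count ran most closely with that of CDC23, with a Pearson correlation of 0.90 and a Spearman of 0.86, followed by YWHAH at 0.86. CDC16 ran closest with RBL2 (0.88) and ANAPC4 with CDK6 (0.85). CDC20 ran closest with MCM2 at 0.82, which was 0.72 without siCARLo-1 v3 replicate 3. ANAPC2 ran closest with POLR1C (0.79), ANAPC1 with POLR1B (0.78), and ANAPC7 with TFDP1 and ANAPC10 with MDM2 (both 0.77). For ANAPC11 the nearest, MCM7 (Pearson 0.60, Spearman 0.24), fell to 0.47 without siCARLo-1 v3 replicate 3, below FZR1 at 0.58. Among the 45 pairs of the 10 genes the correlation ranged from -0.64 for ANAPC1 and CDC23 to 0.62 for ANAPC4 and CDC16, with a median of 0.07. These values are descriptions of libraries that share groups, depth and scaling, and they carry no test.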

How the data were processed

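Molecules of 189 endogenous genes were counted in 24 nCounter libraries of HCT116 and PC3 cells, 8 groups of 3. The deposited tables of 7 groups hold molecule counts as the authors gave them. For PC3 siCARLo-1 v2&4, as in the series-wide table, the deposited values are a score, namely counts that had been scaled to a common sum of the positive controls, as read from the values. Each library was mapped to its column by name, and 0 columns were left over. The accessions of all 10 probes matched their own symbol in RefSeq.

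The 10 genes and the gene lists were chosen with earlier results of these data known. All 10 are named in every comparison, and for each the 2 genes with the highest Pearson correlation in HCT116 were taken as nearest, of which mostly the first is printed. The nearest gene of ANAPC5 and 1 marker check of the lines are not reported here. Listed pathway genes are those on the panel, and their values under the other scalings and without siCARLo-1 v3 replicate 3 were computed after the data were seen. Background in a library was the mean plus 2 SD of its negative probes (4.64 to 16.1), and genes exceeding it in 3 or more of the fitted libraries were tested. TMM factors over all endogenous genes (0.927 to 1.11 in HCT116) set library sizes. HCT116 contrasts used edgeR 4.0.16 (quasi-likelihood F test, 18 libraries, common dispersion 0.00828). Because 1 PC3 group held scaled values, the fits of 6 PC3 and of all 24 libraries used limma 3.58.1, after TMM scaling, a pseudocount of 1 and the log2 transform. The Benjamini-Hochberg adjustment ran over all tested genes of a comparison. The edgeR code was tested on simulated counts for the comparison of siCARLo-3 with siCTRL in HCT116. Alternatives were positive control scaling, 6 reference genes (CLTC, GAPDH, GUSB, HPRT1, PGK1, TUBB), the series-wide scores, DESeq2 1.42.0, limma on the HCT116 counts, no filter, background subtraction, a pseudocount of 10, only the 2 groups compared, a replicate block, edgeR on the 6 control libraries, averaged control replicates 1 and 2, and each replicate left out. Promoters were searched with Python 3.11.15. The main fits treated the samples as unpaired, as the labels do not say that a replicate number is shared between groups. In 0 of 28 pairs of groups did all same-numbered deviations correlate above 0.1. With 3 libraries a group this check cannot exclude pairing.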

Additional observations from a re-analysis of the deposited data

Results flagged for a closer look

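For 6 of the 10 genes the difference between siCARLo-1 siRNA and siCTRL was itself different between the lines, by the limma test of HCT116 siCARLo-1 v3 minus PC3 siCARLo-1 v2&4. The log2 differences were 1.77 for CDC20, 0.81 for ANAPC2, 0.54 for ANAPC1, -0.74 for ANAPC5, -0.76 for CDC16 and -1.37 for CDC23. Line, siRNA sequence, dose and scaling set change together in this contrast and cannot be told apart. CDC20 and CDC23 were called under each scaling tried for this contrast, and the others were each lost under positive control or reference gene scaling.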

How the results depend on the processing

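Of 10 APC/C genes, 5 were called in siCARLo-3, 3 in siCARLo-4 and 2 in siCARLo-7 v2 against siCTRL. These became 3, 1 and 9 with the series-wide values. Over all 178 tested genes, the calls in the same 3 groups went from 93, 63 and 66 to 81, 51 and 139. Reference gene scaling gave 1 in siCARLo-4, and siCARLo-7 v2 gave 1 with positive control scaling, 1 with DESeq2 and 5 with only the 2 groups in the fit. Over all tested genes, the calls in these runs were 42 in siCARLo-4, and 48, 67 and 88 in siCARLo-7 v2. Between siRNAs, siCARLo-3 against siCARLo-1 v3 went from 6 to 3 with only the 2 groups, siCARLo-4 against siCARLo-1 v3 from 5 to 2 with positive control scaling and 1 with the series-wide values, siCARLo-4 against siCARLo-3 from 3 to 6 with either, and siCARLo-7 v2 against siCARLo-5 from 3 to 5 with either. With 1 replicate left out, the counts ran from 3 to 4 in siCARLo-3 (3 without siCTRL replicate 2, siCARLo-3 replicate 1 or siCARLo-3 replicate 3), 1 to 3 in siCARLo-4 (1 without its replicate 2) and 1 to 3 in siCARLo-7 v2 (1 without siCTRL replicate 2 or its replicate 3, 3 without siCTRL replicate 3). They ran from 3 to 6 for siCARLo-3 against siCARLo-1 v3 (3 without siCARLo-3 replicate 1), 3 to 5 for siCARLo-4 against siCARLo-1 v3 (3 without siCARLo-1 v3 replicate 1 or siCARLo-4 replicate 1 or 2) and 3 to 5 for siCARLo-4 against siCARLo-3 (5 without siCARLo-3 replicate 3). Calls over all 178 genes in siCARLo-3 fell from 93 to 85, 84 and 85 without siCTRL replicate 2 and siCARLo-3 replicates 1 and 3. In siCARLo-4 they fell from 63 to 52 without its replicate 2. For the other left-out replicates and for the alternative runs between siRNAs, counts over all genes are not given here. Those changes therefore cannot be read as particular to the 10 genes.

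Signs turned with the scaling. In HCT116 the series-wide values were fitted with limma in place of edgeR, so test and scaling changed together there. With positive controls they turned for ANAPC2 (-0.16) and ANAPC10 (-0.38) in siCARLo-3, ANAPC7 in siCARLo-5 (-0.13), ANAPC2 (0.56) and ANAPC10 (0.44) in siCARLo-7 v2 against siCARLo-3, and in PC3 for ANAPC2 (-0.77), ANAPC4 (-0.47), ANAPC5 (-0.0501), ANAPC7 (-0.78), ANAPC10 (-0.47), ANAPC11 (-0.50) and CDC23 (-0.0814). With the series-wide values they turned for CDC16 in siCARLo-4 (0.022) and siCARLo-5 (0.0886), ANAPC4 in siCARLo-7 v2 (0.68), ANAPC2 (0.16), CDC16 (0.50) and CDC23 (0.24) in siCARLo-7 v2 against siCARLo-1 v3, ANAPC1 (0.13) and ANAPC10 (0.21) in siCARLo-5 against siCARLo-3, and ANAPC1 (0.80), ANAPC2 (0.92) and ANAPC10 (0.82) in siCARLo-7 v2 against siCARLo-3. In PC3 they turned for ANAPC2 (-1.07), ANAPC4 (-0.76), ANAPC5 (-0.35), ANAPC7 (-1.07), ANAPC10 (-0.76), ANAPC11 (-0.79), CDC16 (-0.23) and CDC23 (-0.38). The cause was not tested. The falls of CDC23 in siCARLo-1 v3, siCARLo-3 and siCARLo-5 and of CDC20 in PC3 kept their direction and call under all alternatives run for them.

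With a replicate block, although the labels do not say that replicate numbers pair the samples, the fold changes of CDC23 in siCARLo-3 and CDC20 in PC3 were -1.69 and -2.15. Over all comparisons 5 calls were lost and 1 gained with that block. With 9 to 79 molecules per HCT116 library, ANAPC11 is limited by depth. Counts were also low for ANAPC4 (23 to 101 molecules) and ANAPC2 (35 to 126).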
